A study of Mus musculus with 2 samples.

Results

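The genes described here encode the subunits of the proteasome, and they were chosen by name, as every row of the deposited transcript tables whose gene symbol is Psma, Psmb, Psmc or Psmd followed by a number. The annotation holds 39 such genes, of which 38 had at least 1 read and 37 had at least 10 reads over both libraries, out of 16945 annotated genes with a read. RNA came from adrenal glands of female B6CASTF1/J mice, the F1 cross of the inbred strains C57BL/6J and CAST/EiJ, aged 36 days, and long-read sequencing was used, so that a single read can cover a whole transcript. The labels give 1 group with biological replicates 1 and 2, no genotype contrast and no treatment, so levels, isoforms and the difference between 2 libraries can be described and no condition can be compared. The donor field is the same for both libraries while the sample descriptions number the mice differently, so the spread between the libraries, and any p-value resting on it, may be technical. An RNA starting quantity of 1 µg is given for replicate 1 only.

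The proteasome is the protease that degrades proteins tagged with ubiquitin. Its barrel-shaped core, the 20S particle, is built of outer rings of alpha subunits, which form the gate, and inner rings of beta subunits, of which only some carry active sites. The 19S regulatory particle sits on the core and has a base, with a ring of ATPases that unfold substrates, and a lid, which removes ubiquitin. Interferon and cells of the immune system bring in a second set of catalytic beta subunits, which replace the standard ones in new particles and change which peptides are cut for antigen presentation.

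Replicate 1 held 1223776 reads and replicate 2 held 453761, with 1144572 and 414588 on annotated genes. Levels are given as CPM, the reads of a gene per 1000000 reads of annotated genes, over all classes of transcript model. A long read stands for 1 molecule whatever its length, so levels were not divided by transcript length. A count of 0 allows up to 2.62 CPM in replicate 1 and 7.24 CPM in replicate 2, taking 3 reads as the limit, which covers counting error only. Summed levels of 4 cortex markers were 53562 CPM in replicate 1 and 70936 CPM in replicate 2, and those of 3 medulla markers were 6118 and 4049.8 CPM, so the defining genes of both parts of the gland were read. The cortex markers did not move together. Cyp11a1 had 20811 and 41366 CPM and was called higher in replicate 2 by the test described below. Star had 10683.5 and 8799.1 CPM and was called lower, and Cyp11b1 and Cyp21a1 were not called. Of the medulla markers Th, with 1678 and 1155 CPM, and Chga, with 3953 and 2496 CPM, were called lower in replicate 2. Pnmt was not called. Some other markers differed more between the libraries. Of 3 skeletal muscle markers the sum was 666 CPM in replicate 1 and 4.82 CPM in replicate 2, while the adipocyte marker Fabp4 had 771 and 2914 CPM and Adipoq, the other one examined, had 295 and 311 CPM. Their part in the differences between libraries given here was not tested, and in bulk tissue fewer cells of a type and less RNA per cell cannot be told apart.

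Together the proteasome genes took 9319 reads in replicate 1 and 3323 in replicate 2, which was 0.814% and 0.802% of the reads of annotated genes. The 37 genes with at least 10 reads had a median level of 202 CPM, against 31.9 CPM over all genes that passed the same limit. Of them, 19 were among the 1000 genes with the highest mean level and 31 were among the first 2000. Levels ran from 26.8 CPM for Psmb9, an immune subunit, to 617 CPM for Psmb5, a 23.0-fold range. A part of these genes cannot have a wider range than the whole. The range was 5.40-fold over the 14 standard core genes, and 3.71-fold over 17 genes of the 19S particle, its assembly chaperones left aside. It was 3.18-fold over the immune catalytic genes and 2.14-fold over the chaperones. Over the 37 genes, Spearman's rho between level and annotated transcript length was -0.21, and over the 9333 tested genes with an annotated transcript read it was -0.24, both as descriptions across genes that share libraries.

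**Figure D1:**
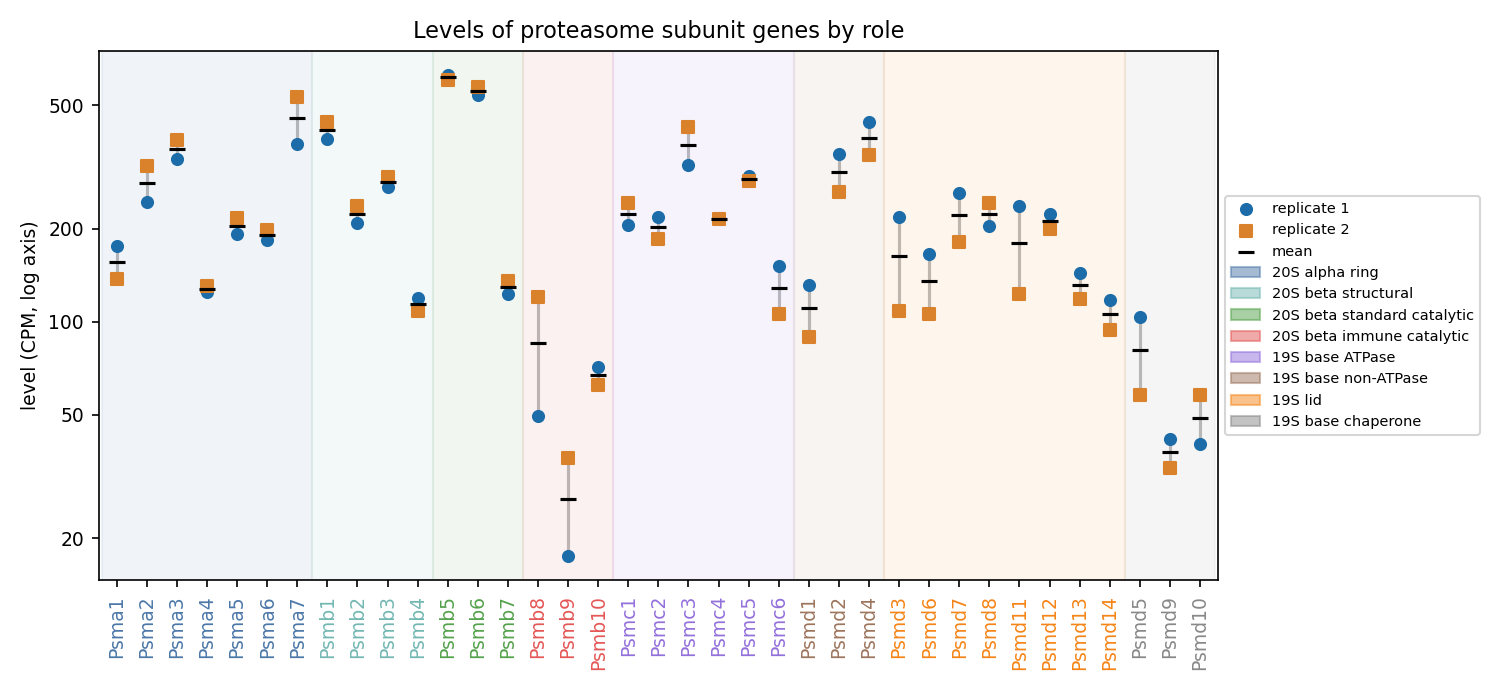
Level of each proteasome gene with at least 10 reads, in CPM on a log axis, with replicate 1 as circles, replicate 2 as squares and the mean as a dash. Psmb5 and Psmb6 stand at the top in both libraries, and the immune subunit Psmb9 and the chaperone Psmd9 are at the bottom.

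The alpha ring genes, whose products form the outer ring and the gate of the core, lay between 128 and 455 CPM. Psma7 was the highest, at 377 CPM in replicate 1 and 533 CPM in replicate 2. Psma3 followed with 361 ± 35.0 CPM (SD, n = 2) and Psma2 with 281 ± 52.8 CPM. Psma5, Psma6 and Psma1 had means of 205, 191 and 157 CPM. Psma4 was the lowest of the ring at 125 and 130.2 CPM, so that the highest and lowest ring members differed 3.56-fold although the ring holds 1 of each. Psma8, the alpha subunit that replaces Psma7 in testis, had 1 read in replicate 1 and 0 in replicate 2, below the limit for a count of 0 in both.

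Among the beta subunits without an active site, Psmb1 was the highest, with 391 and 444 CPM. Psmb3 had 284 ± 14.7 CPM and Psmb2 had 223 ± 19.5 CPM. Psmb4 was the lowest at 119.7 and 109 CPM, 3.66-fold under Psmb1. The libraries did not overlap between these genes: in both, Psmb1 lay above Psmb3, Psmb3 above Psmb2 and Psmb2 above Psmb4.

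The 3 standard catalytic subunits were unequal. Psmb5, which carries the chymotrypsin-like activity (ENSMUSG00000022193.7, chr14:54614119-54618022 of mm10, minus strand), had 719 reads in replicate 1 and 251 in replicate 2, or 628 and 605 CPM. Psmb6, which carries the caspase-like activity (chr11:70525367-70527858, plus strand), had 621 and 238 reads, or 543 and 574 CPM. Psmb7, which carries the trypsin-like activity (chr2:38588036-38644087, minus strand), had 141 and 56 reads, or 123 and 135 CPM. Psmb7 was thus the low one of the set in both libraries, 4.78-fold under Psmb5 by the means, while Psmb5 lay above Psmb6 in each.

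The immune subunits were lower than their standard partners in every pair and in both libraries. Psmb8, which takes the place of Psmb5 (chr17:34197721-34201454, plus strand), had 57 and 50 reads, or 49.8 and 121 CPM. Psmb9, which takes the place of Psmb6 (chr17:34181987-34187764, minus strand), had 20 and 15 reads, or 17.5 and 36.2 CPM. Psmb10, which takes the place of Psmb7 (chr8:105935735-105938444, minus strand), had 82 and 26 reads, or 71.6 and 62.7 CPM. Psmb9 was the lowest in both libraries, whereas the order of Psmb8 and Psmb10 changed between them. The thymus subunit Psmb11 had 0 reads in both.

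The gap between partners differed from pair to pair. Psmb5 was 12.6-fold above Psmb8 in replicate 1 and 5.02-fold in replicate 2, and Psmb6 was 31.1-fold and 15.9-fold above Psmb9. The Genomic class holds models on a gene that are in none of the other classes described below. Without it the gap of Psmb5 over Psmb8 was 12.6-fold in replicate 1 and 8.75-fold in replicate 2. Full-length reads are here those of models that match an annotated transcript or have a new chain of introns. Among them the gap was 16.9-fold in replicate 1 and 8.43-fold in replicate 2. Psmb7 was 1.72-fold and 2.15-fold above Psmb10, the smallest gap of the 3 in each library. Psmb10 therefore made up 36.8% of the reads of its pair in replicate 1 (interval 30.7 to 43.3%, Wilson, 95%) and 31.7% in the other library (22.6 to 42.4%). Psmb9 made up 3.12% (2.03 to 4.77%) and 5.93% (3.63 to 9.55%). The intervals of Psmb10 lie apart from those of Psmb9 in both libraries.

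Over all 3 pairs the immune share of catalytic reads was 9.70% in replicate 1 (159 of 1640 reads, interval 8.36 to 11.2%) and 14.3% in replicate 2 (91 of 636, 11.8 to 17.2%). Among reads of full-length models it was 7.52% (6.30 to 8.95%) and 10.3% (8.09 to 13.0%). Without the Genomic class it was 9.59% (8.26 to 11.1%) and 11.3% (9.07 to 14.1%). The intervals of the libraries overlapped in both of these settings and not over all reads. Of 5 lymphocyte markers, Cd3e, Cd3g and Ms4a1 had 0 reads in both libraries and the sum was 2.62 CPM in replicate 1 and 0 in replicate 2. The 4 macrophage markers summed to 324 and 265 CPM, most of it from Cd74 at 188 and 166 CPM and Lyz2 at 123 and 84.4 CPM. Csf1r had 11.4 and 14.5 CPM, and Adgre1 had 2 reads in replicate 1 and 0 in replicate 2. The part of the lymphocyte and macrophage markers in the immune share was not tested.

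**Figure D2:**
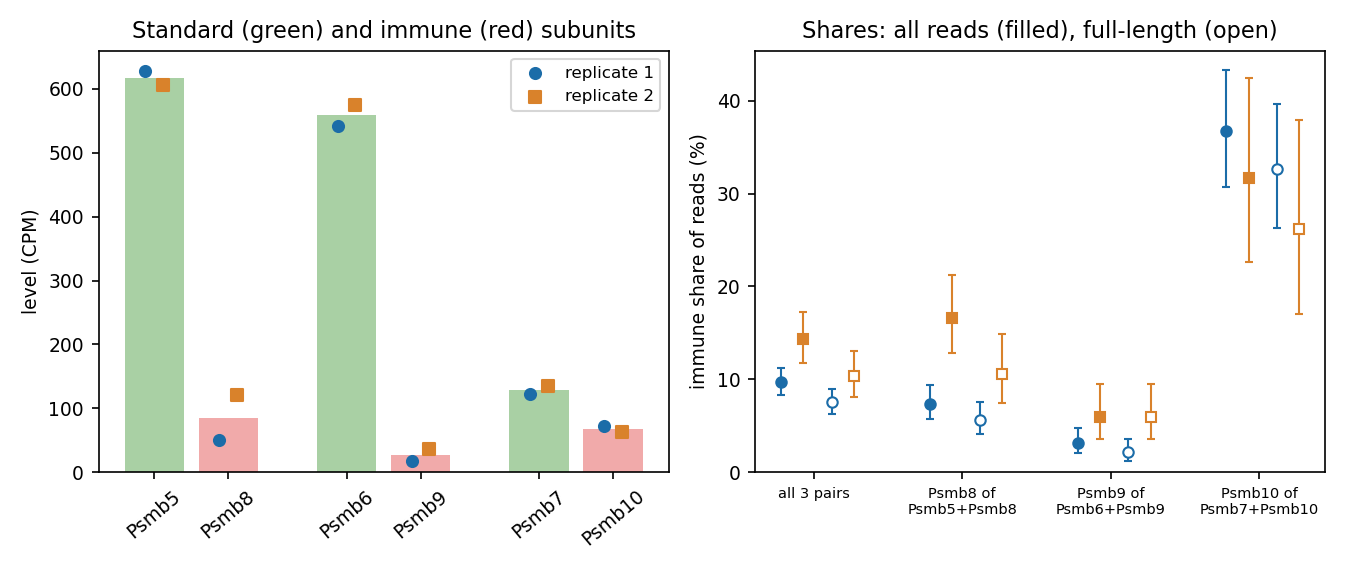
Left, level in CPM of each standard (green) and immune (red) catalytic subunit, with the mean as a bar and the libraries as points. Right, the immune share of reads in % with 95% Wilson intervals, over all reads (filled) and full-length reads (open), with circles for replicate 1 and squares for replicate 2. The Psmb10 share is the highest and the Psmb9 share the lowest in every setting shown.

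The 6 ATPases of the 19S base lay between 129 and 374 CPM. Psmc3 was the highest, with 321 CPM in replicate 1 and 427 CPM in replicate 2, and Psmc6 the lowest, with 152 and 106 CPM. Psmc4 and Psmc5 differed least between the libraries, with 215 ± 0.799 and 290.0 ± 7.56 CPM. Psmc1 and Psmc2 had means of 223 and 202 CPM. The 3 other base subunits were Psmd4, a ubiquitin receptor, at 441 and 345 CPM, Psmd2, a large scaffold, at 348 and 263 CPM, and Psmd1, the other large scaffold, at 132 and 89.2 CPM. Psmd4 was the highest 19S gene by its mean, and all 3 were lower in replicate 2.

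The 8 lid genes were closer to each other, between 106 and 222 CPM, a 2.10-fold range. Psmd8 and Psmd7 had the highest means, 222 ± 26.6 and 221 ± 56.2 CPM, followed by Psmd12 at 212 ± 16.6 CPM and Psmd11 at 179 ± 79.8 CPM. Psmd3, Psmd6 and Psmd13 had 163, 136 and 131 CPM. Psmd14, the deubiquitinase of the lid, was the lowest at 118 and 94.1 CPM. The chaperones that help assemble the base and leave the finished particle were lower, with 80.9 CPM for Psmd5, 49.0 CPM for Psmd10 and 37.9 CPM for Psmd9. Psmd9 was below every lid and base subunit in both libraries.

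Summed over genes, the 20S core had 4059 CPM in replicate 1 and 4537 CPM in replicate 2, and the 19S genes had 4083 and 3478 CPM. The ratio of 19S to 20S was 1.01 in replicate 1 and 0.767 in replicate 2, and 0.913 and 0.694 among full-length reads. The 19S sum takes in the chaperones. It leaves out 19S genes outside the Psm names, such as Adrm1, with 218 and 207 CPM, and Sem1, with 315 and 415 CPM. The ratio therefore describes the genes chosen by name and not the whole particles. Chaperones left aside, the median 19S gene stood at 0.961 times the median of the standard 20S genes in replicate 1 and at 0.700 times in replicate 2.

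For each gene the split of its reads between the libraries was set against the split of the scaled library sizes in an exact binomial test, two-sided, with Benjamini-Hochberg adjustment over 9885 genes. This sets reads against counting error for these libraries and says nothing about mice in general. Of the 37 proteasome genes 6 passed an adjusted p of 0.05, or 16.2%, against 14.0% of all genes tested. Higher in replicate 2 were 4 genes, against 7.86% of all genes, and lower were 2, against 6.13%. The shares are near those of all genes.

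The 4 genes called higher in replicate 2 were 3 core genes and 1 ATPase. Psmb8 differed most, 2.51-fold (log2 ratio 1.33, adjusted p = 7.88e-05 by the exact binomial test), but without the Genomic class its log2 ratio was 0.57 and did not pass (adjusted p = 0.303). Psma7 was 1.49-fold higher (log2 ratio 0.57, adjusted p = 6.62e-05, exact binomial test), with 431 and 221 reads, and did not pass with full-length models (0.36). Psmc3 was 1.40-fold higher with 367 and 177 reads (adjusted p = 0.00425, exact binomial test). That call was lost with full-length models (log2 ratio 0.01), without 1-exon models (-0.04) and with replicate 1 thinned to equal depth (0.39). Psma2, with 279 and 132 reads, was 1.37-fold higher (adjusted p = 0.0280, exact binomial test), and did not pass with the thinned library (0.35) or with scaling by total reads (0.38).

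Both genes called lower in replicate 2 belong to the lid. Psmd3 had 249 reads in replicate 1 and 45 in replicate 2, or 218 and 109 CPM (log2 ratio -0.93, adjusted p = 0.000432, exact binomial test). Psmd11 had 270 and 51 reads, or 236 and 123 CPM (log2 ratio -0.86, adjusted p = 0.000658, exact binomial test). These calls held under all 9 ways of scaling, filtering or choosing models that were tested. Psmb9 had a log2 ratio of 1.08 with a 95% counting interval of 0.05 to 2.16 and did not pass over all reads.

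Ratios of core genes lay mostly above 0 and those of regulatory genes mostly below, a difference that was not tested. Of 17 core genes 14 had a ratio above 0 with a median log2 ratio of 0.20, and of 20 regulatory genes 14 had a ratio below 0 with a median of -0.24, while the median of all genes tested was -0.01. Of the genes chosen by name, all 3 non-ATPase base genes and 7 of 8 lid genes were on the low side, with Psmd8 the exception. Of those on the low side Psmd1 turned to 2.14 with full-length models, Psmd13 to 0.18 without the Genomic class and Psmd12 to 0.04 with replicate 1 thinned. Sem1, a lid subunit outside the Psm names and not counted here, had a log2 ratio of 0.47, and Adrm1 had -0.003. The number of 19S genes below 0 was 12 to 16 of 20 over the settings. The 17 core genes share libraries and so do the 20 regulatory genes, and the counts are given as descriptions.

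**Figure D3:**
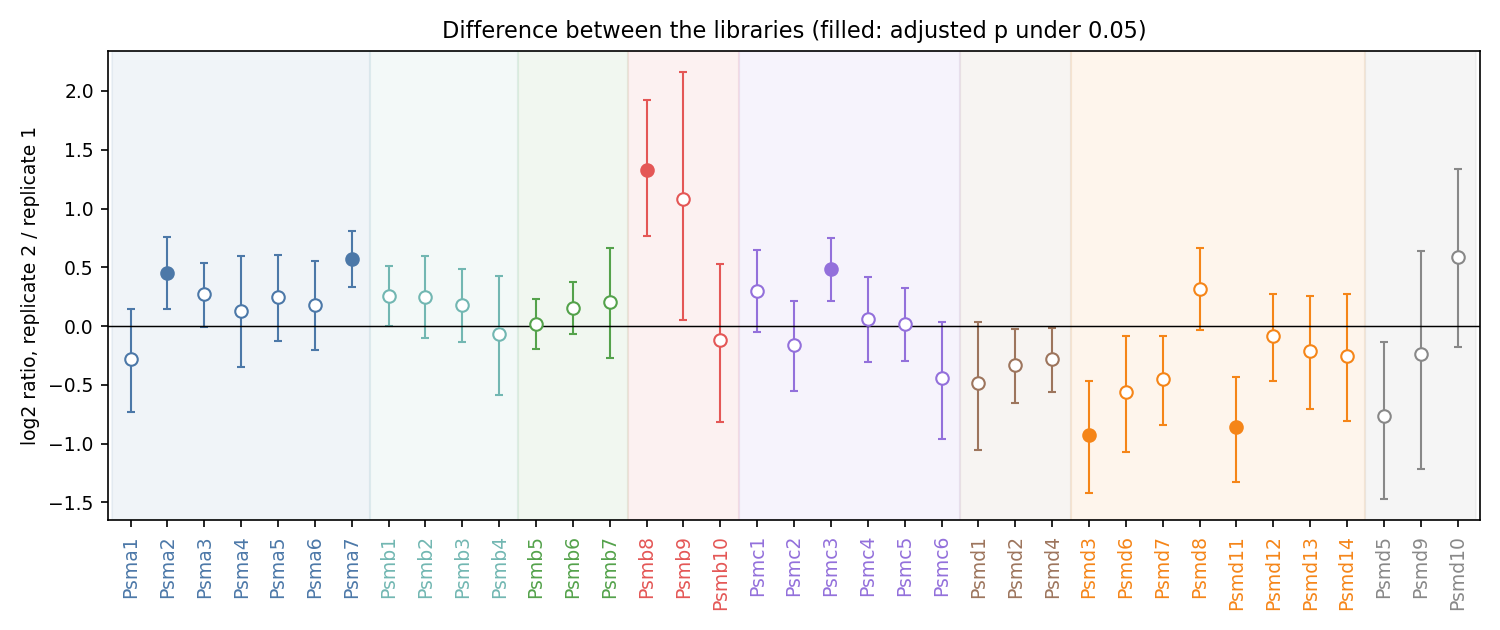
Log2 ratio of replicate 2 to replicate 1 for each gene, with 95% exact binomial counting intervals. Filled points are the 6 genes with an adjusted p under 0.05, with Psmb8 at 1.33 the highest and Psmd3 at -0.93 the lowest.

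Transcript length also differed between the particles. The leading transcripts of the core genes had a median annotated length of 1183 bp and those of the 19S genes 1710.5 bp. All 5 proteasome genes with a leading transcript under 1000 bp were core genes and had a ratio above 0, as had 780 of 1091 of all genes in that class. Of 9 proteasome genes at 2000 bp or longer 7 had a ratio below 0, as had 3146 of 5845 of all genes. These 7 were all 19S genes, and the others, Psma2 and Psma3, were core genes. The class under 1000 bp held core genes only, so the particles could not be compared there. In the class of 2000 bp or longer Psma2 and Psma3 were the only core genes. Spearman's rho between the ratio and length was -0.35 over 37 proteasome genes and -0.08 over 9333 genes. Within the 19S genes it was -0.51 over 20 genes, and within the core genes it was 0.39 over 17, so length did not go with the ratio in one direction in both. The part of length in the difference between the particles was not tested.

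**Figure D4:**
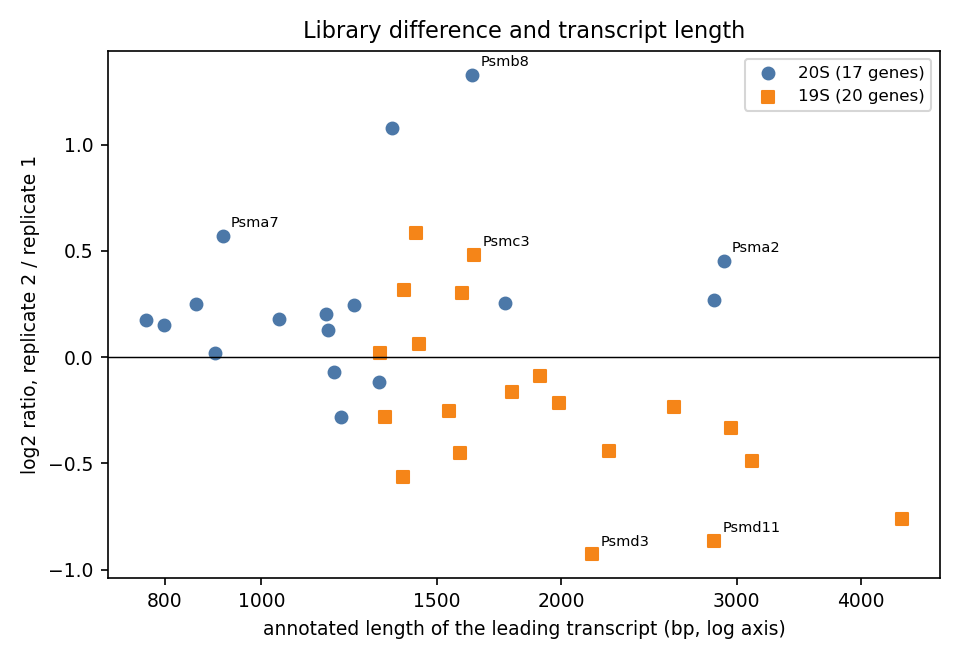
Log2 ratio of replicate 2 to replicate 1 against the annotated length of the leading transcript in bp, on a log axis, for 17 core genes (circles) and 20 regulatory genes (squares). The called genes are named, and Psmd3 and Psmd11, both called lower, have leading transcripts of 2148 and 2848 bp.

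Each read was placed by the authors' pipeline in a class of transcript model. Known models match an annotated transcript, and NIC and NNC models join annotated splice sites in a new way or use a new site. ISM models hold only part of an annotated chain of introns. Genomic models are the rest of those placed on a gene, and some of them lie inside an annotated exon. Known, NIC and NNC models are called full-length here. The name is that of the classes, and it also takes in short annotated transcripts, such as Psma1-205 with 1 exon. Of the proteasome reads 88.2% were full-length in replicate 1 and 85.2% in replicate 2, against 81.9% and 75.7% over all annotated genes. The median gene had 92.3% and 90.9%. All 46 reads of Psmd10 in replicate 1 and all 238 reads of Psmb6 in replicate 2 were in these classes. Of the 238 reads of Psmb6, 59 were of Psmb6-202, a retained-intron transcript of 2 exons. Psmc2 and Psmd1 were far under the rest in replicate 1, and without both the share over the other members was 91.8% and 87.4%.

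**Figure D5:**
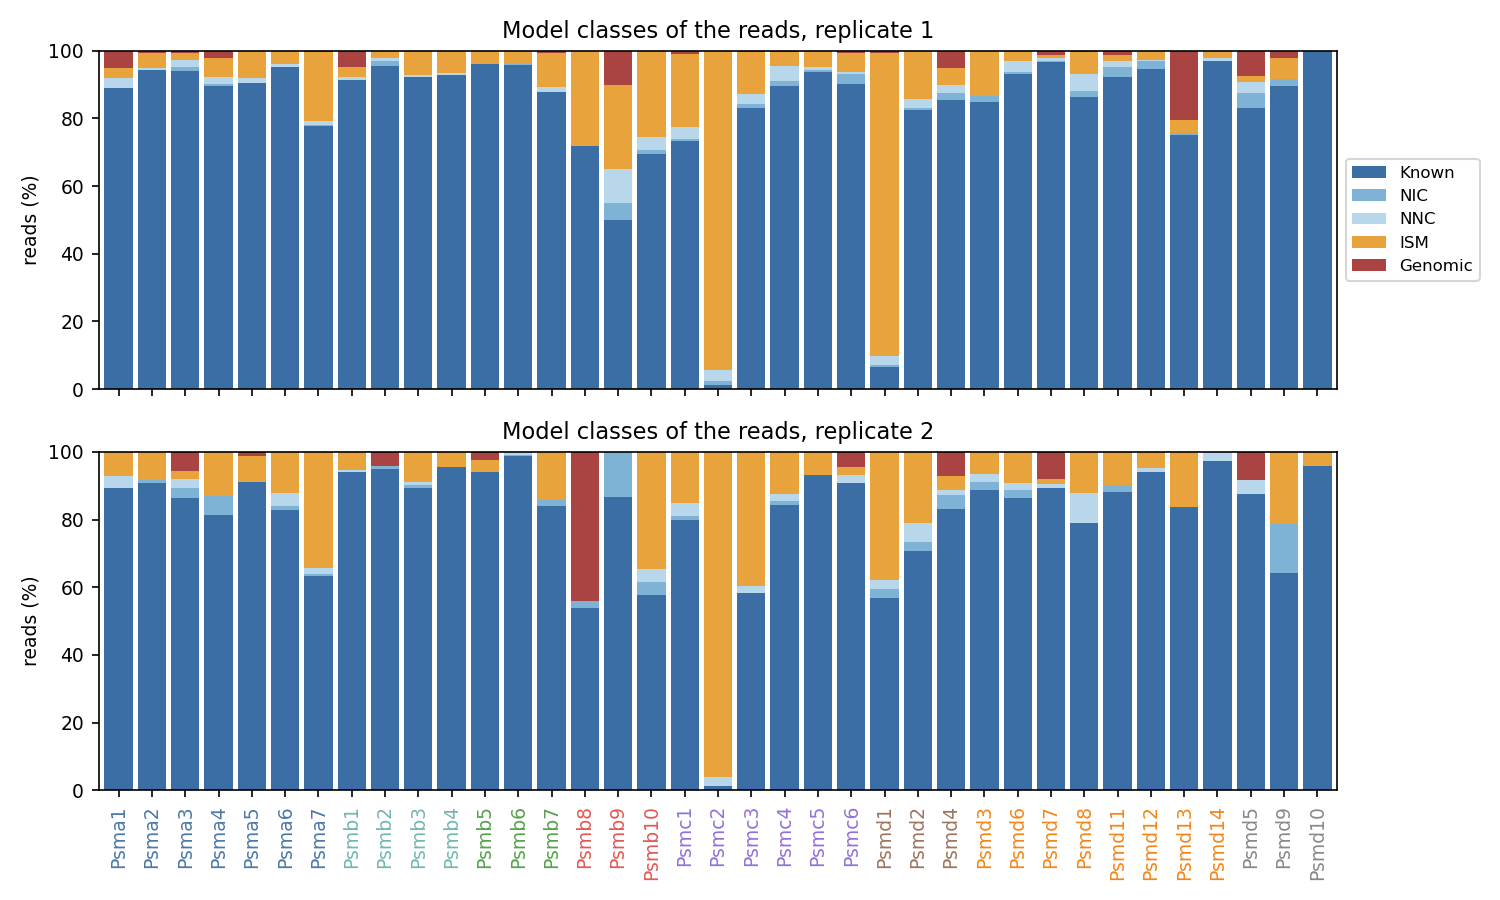
Share of reads in % in each model class for each gene, replicate 1 above and replicate 2 below. Psmc2 is almost all ISM in both libraries, Psmd1 is mostly ISM in replicate 1 only, and Psmb8 has a large Genomic share in replicate 2 only.

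Psmc2, an ATPase of the base (chr5:21785283-21803787, plus strand), was read almost only without its first annotated exon. Full-length models took 14 of 250 reads in replicate 1 and 3 of 77 in replicate 2. A single 12-exon model that starts at the annotated second exon of Psmc2-201 took 224 reads, or 89.6% (85.2 to 92.8%), and 66 reads, or 85.7% (76.2 to 91.8%). RefSeq gives Psmc2 another start at position 21786747, which is 97 bases inside that exon (21786650 to 21786884) and 58 bases after the annotated start codon. The files give the model's first base as that of the exon and not where single reads begin. The windows around both RefSeq starts (250 bases before to 50 after, RefSeq on GRCm38.p6) are shown because the common model lacks the exon that follows the first start and begins at the exon that holds the second. The first is chr5:21785025-21785324, with a CCAAT motif in capitals, and the second is chr5:21786497-21786796, with the bases of the annotated second exon in capitals.
Psmc2, first start: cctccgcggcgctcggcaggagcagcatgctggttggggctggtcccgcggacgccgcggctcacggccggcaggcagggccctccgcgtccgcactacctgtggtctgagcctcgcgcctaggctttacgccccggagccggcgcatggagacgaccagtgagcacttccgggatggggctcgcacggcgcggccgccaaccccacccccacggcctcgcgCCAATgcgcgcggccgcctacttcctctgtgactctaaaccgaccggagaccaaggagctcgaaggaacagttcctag
Psmc2, second start: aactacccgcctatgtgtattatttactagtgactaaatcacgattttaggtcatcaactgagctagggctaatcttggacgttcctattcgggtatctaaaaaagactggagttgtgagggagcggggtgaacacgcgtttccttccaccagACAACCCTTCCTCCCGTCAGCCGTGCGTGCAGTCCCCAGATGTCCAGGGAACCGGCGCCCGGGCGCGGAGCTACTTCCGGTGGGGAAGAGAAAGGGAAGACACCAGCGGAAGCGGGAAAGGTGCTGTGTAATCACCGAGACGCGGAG

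The CCAAT motif and the core of the antioxidant response element, TGACNNNGC, which NRF factors bind, were searched on both strands of the RefSeq windows of 32 of the 39 genes. Of 34 windows 13 held CCAAT, or 38.2%, against 37.4% of 32851 windows of all genes. TGACNNNGC was in 5, or 14.7%, against 12.4%, those of Psmb5, Psmb6, Psmc6, Psmd9 and Psmd12. Both shares are near those of all windows, and a match describes letters only.

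Psmd1 was read mostly without its 3′ part in replicate 1. There an ISM model of 22 exons that lacks the 3′ part took 107 of 151 reads, or 70.9% (63.2 to 77.5%), and in replicate 2 it took 7 of 37, or 18.9% (9.48 to 34.2%). The intervals do not overlap, and Psmd1 had only 15 full-length reads in replicate 1 against 23 in the shallower replicate 2. Counted by full-length reads alone, Psmd1 turned from a log2 ratio of -0.49 to 2.14, with an adjusted p of 7.22e-05 by the exact binomial test.

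Short models took unequal shares of the reads of other called genes. A 1-exon ISM model in the last exon of Psmc3 took 17 of 367 reads in replicate 1 and 66 of 177 in replicate 2, or 4.63% and 37.3%. In Psmb8 a Genomic model of 160 bases that lies inside the last exon took 22 of 50 reads in replicate 2, and an ISM model of 273 bases in the same exon took 15 of 57 in replicate 1. Leaving out the Genomic class drops the former reads and keeps the latter. Psmb8 passed with full-length reads (41 and 28 reads, log2 ratio 1.03, adjusted p = 0.0352 by the exact binomial test). Psmb9 passed among full-length reads, with 13 and 15 reads and a log2 ratio of 1.73 (adjusted p = 0.0133, exact binomial test). A 4-exon ISM model lacking the 5′ part took 87 of 431 reads of Psma7 in replicate 1 and 73 of 221 in replicate 2, and among full-length reads the Psma7 ratio was 0.36 and did not pass (adjusted p = 0.0766, exact binomial test). Psmd13 had 33 of 165 reads in a Genomic model of 1 exon in replicate 1 only, and its ratio was not called.

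In most genes 1 isoform held nearly all full-length reads. Where both libraries had 20 or more full-length reads, in 32 genes, the median leading share was 96.7% in replicate 1 and 95.8% in replicate 2. Psmb5-201 held 690 of 691 and 236 of 236 reads, Psmb7-201 held 124 of 126 and 47 of 48, and Psmb8-201 held 41 of 41 and 27 of 28, so these catalytic subunits were read as 1 form. Leading isoform shares were compared by a two-sided Fisher's exact test, and 1 of the 32 passed, Psmb6, against 1.03% of 3005 genes.

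Psmb6-201, the 6-exon coding transcript, held 506 of 597 full-length reads in replicate 1, or 84.8% (81.7 to 87.4%), and 176 of 238 in replicate 2, or 73.9% (68.0 to 79.1%), with an adjusted p of 0.0471 by Fisher's exact test. Nearly all the rest was Psmb6-202, a 2-exon retained-intron transcript, with 88 and 59 reads. The only intron of Psmb6-202 is also an intron of Psmb6-201. A read that holds just this intron has the whole intron chain of Psmb6-202 and a part of that of Psmb6-201. Such isoforms, whose introns are all consecutive introns of the leading one, were 15 of the 30 second isoforms read in these genes and held 156 and 79 reads. With a minimum of 10 full-length reads the Psmb6 difference no longer passed (adjusted p = 0.0652, Fisher's exact test), as more genes were then tested. With ISM reads in the denominator 4 of 35 genes passed, Psma6, Psma7, Psmc3 and Psmd1, and Psmb6 did not. That was 11.4%, near the 9.25% of all 3341 genes tested in that way.

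Psmd4, the ubiquitin receptor, had the lowest leading share of the 32 genes, with reads split mainly between 2 coding isoforms. Psmd4-202 held 225 of 454 full-length reads in replicate 1, or 49.6% (45.0 to 54.1%), and 70 of 127 in replicate 2, or 55.1% (46.4 to 63.5%). Psmd4-201 held 205 and 49 reads, or 45.2% and 38.6%. Their donor sites lie 9 bases apart (chr3:95033909-95033917, minus strand, mm10), within coding sequence, so the longer form has 9 more bases in the same frame. Both are shown across the junction, with the added bases in capitals (GENCODE M21).
Psmd4-201: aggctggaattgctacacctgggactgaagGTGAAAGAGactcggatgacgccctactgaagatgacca
Psmd4-202: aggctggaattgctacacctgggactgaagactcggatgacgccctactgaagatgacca
The intervals of the Psmd4-202 share overlapped, and the difference did not pass.

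Psma3 had forms that differ at an acceptor site, by a length that shifts the frame. Psma3-202, the coding form, held 334 of 374 full-length reads in replicate 1 and 123 of 147 in replicate 2, or 89.3% and 83.7%. Psma3-201, annotated as a target of nonsense-mediated decay, held 18 and 12 reads, or 4.81% (3.07 to 7.48%) and 8.16% (4.73 to 13.7%). The acceptor sites are 5 bases apart (chr12:70983319-70983323, plus strand), and the bases left out of Psma3-201 are in capitals.
Psma3-202: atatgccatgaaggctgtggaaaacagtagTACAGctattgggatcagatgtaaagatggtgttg
Psma3-201: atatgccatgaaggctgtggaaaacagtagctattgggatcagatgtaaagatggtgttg

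Psmd10 and Psmd11 had smaller second forms. Psmd10-201 held 40 of 46 full-length reads in replicate 1 and 18 of 23 in replicate 2, and Psmd10-202, which has 1 intron of its own, held 6 and 5. Psmd11-201 held 80.9% and 80.4%, and a 13-exon coding form, whose introns are all introns of Psmd11-201, held 37 and 8 reads. Over all annotated forms, 7839 and 2646 reads were of protein-coding transcripts, 124 and 75 of retained-intron transcripts and 20 and 16 of transcripts marked for nonsense-mediated decay.

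Unannotated splice forms were rare and mostly single reads. Of 115 NNC intron chains in replicate 1 and 44 in replicate 2, 16 were found in both, and 96 and 41 had 1 read. Of 58 and 33 NIC chains 9 were in both. The most read in both was a 5-exon NNC model of Psmd8, a lid subunit, with 5 of 233 reads in replicate 1 and 9 of 100 in replicate 2, or 2.15% (0.920 to 4.92%) and 9% (4.81 to 16.2%). It joins the first exon, at chr7:29180277, to a site inside the annotated exon 4, at chr7:29177197 (minus strand), and leaves out 210 coding bases, a number that keeps the frame. The junction is shown with the bases after it in capitals (GENCODE M21 transcript sequence).
Psmd8 unannotated junction: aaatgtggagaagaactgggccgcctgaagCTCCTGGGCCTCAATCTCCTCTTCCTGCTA
The ends of the skipped stretch share a repeat of 2 bases. How reads were aligned there was not tested.

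A 12-exon NNC chain of Psmc3 came next, with 5 and 2 reads, followed by a 7-exon chain of Psma7 with 2 and 3. The other NNC chains read in both libraries, of Psma3, Psmb6, Psmc1, Psmc2, Psmd2, Psmd4, Psmd6 and Psmd7 and further chains of Psma7 and Psmc3, had 1 or 2 reads in each. The most read NIC chain was a 5-exon form of Psmb2 with 4 and 1 reads, and others were of Psma4, Psma7, Psmb6, Psmc1, Psmc4, Psmd4 and Psmd9.

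Other genes of the pathway were examined as a list of 35, of which 34 were matched by symbol. Of these 4 were called higher in replicate 2 by the same exact binomial test, against 7.86% of all genes, 5 were called lower, against 6.13%, and 25 were not called. The median log2 ratio of the list was 0.31. Among activators, which open the core without ATP, Psme2 was the highest at 288 ± 36.4 CPM (SD, n = 2), followed by Psme1 at 204 ± 35.4 CPM. Both are induced by interferon, as are the immune subunits, and both were above all 3 of these in each library. None of the 5 activator and inhibitor genes was called.

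Of the 5 core assembly chaperones Pomp was the highest, with 278 and 400 CPM, and the only one called (log2 ratio 0.60, adjusted p = 0.000428, exact binomial test). Sem1, a small lid subunit outside the Psm names, had 315 and 415 CPM and was called higher (adjusted p = 0.00707, exact binomial test). Zfand5, a proteasome activator, had 296 and 188 CPM and was called lower, as was Akirin2, which takes proteasomes into the nucleus, with 82.1 and 38.6 CPM. Vcp, the unfoldase that hands substrates to the proteasome, had 685 CPM in replicate 1 and 326 in replicate 2 (log2 ratio -0.999, adjusted p = 7.54e-14, exact binomial test).

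Of 4 genes of transcriptional control, Nfe2l1, the factor that raises proteasome genes when activity is short, had 344 ± 42.0 CPM and was not called. Nfe2l2 was called higher in replicate 2 at 59.4 and 98.9 CPM, and Ngly1, the glycosidase that processes the Nfe2l1 protein, was called lower at 121 and 62.7 CPM. Of 4 antigen processing genes that interferon induces, Tapbp was the highest at 178 ± 0.800 CPM. Tap2 was called lower in replicate 2 (144 and 38.6 CPM), while Psmb8 of the same chromosome region was called higher. Tap1 had 32.3 and 28.9 CPM and was not called. Psmb9 and Tap1 overlap on opposite strands in the annotation, as do 16 of the 39 genes with some gene, and the sources used here do not say if reads were assigned by strand.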

How the data were processed

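The authors deposited raw read counts for every transcript model in each of the 2 libraries, with no normalization. The ENCODE long-read pipeline made them, per the labels' protocols. Per the file headers and the notes with the files, alignments are to mm10, models carry TALON identifiers and were compared with GENCODE M21, and exon numbers, lengths and positions are as deposited. Aligner, versions and strand handling: not given in the sources used here. Total reads were 1223776 and 453761.

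Counts were summed by gene with Python 3.11.15. CPM are reads per 1000000 reads of annotated genes (whole-series columns left unused: 0). Ratios used TMM factors of 1.03 and 0.976 (edgeR 4.0.16, R 4.3.3) and a pseudocount of 1 CPM, over genes with at least 10 reads. Tests were exact binomial and Fisher's exact (SciPy 1.17.1) with Benjamini-Hochberg adjustment over all genes tested and a threshold of 0.05, checked on simulated data. Alternatives were scaling by total reads or DESeq2 1.42.0 size factors, other read minimums and pseudocount, other model classes, and replicate 1 thinned to the depth of replicate 2. Intervals of shares are 95% Wilson intervals and cover counting error only. Isoforms needed 20 full-length reads in each library. Of the 4 annotated pseudogenes named after members none had a read. Promoter windows are RefSeq's.

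All members are given by role, with full values for the catalytic subunits, the highest and lowest of each role, called members, those with a leading isoform under 80% and unannotated models found in both libraries. Members and lists were chosen with earlier results of these data known. Of the pathway list 1 gene had no match by symbol. Protein sequences were not used here. Figures were drawn with matplotlib 3.10.9. The sequence at the end of 1 incomplete model is not reported here.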

Additional observations from a re-analysis of the deposited data

Results flagged for a closer look

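Reads on the other strand of proteasome genes, at loci outside the annotation, are not part of any level given above. More than 3 reads, the limit that a count of 0 allows, lay at 7 such loci. Within Psmd11, a locus at chr11:80471875-80472306 had 13 reads in replicate 1 and 1 in replicate 2, one at chr11:80472619-80473093 had 11 in replicate 1 and 2 in replicate 2, and one at chr11:80466482-80468971 had 5 in replicate 1, with 2 in replicate 2 that end at 80466757. A locus at chr3:94886769-94886918 opposite Psmb4 had 14 reads in replicate 1, and one from the same start to 94886961 had 2 in replicate 2. Opposite Psmb1, a locus of 3 exons at chr17:15490156-15498298 had 7 reads in replicate 1, and in replicate 2 a locus of 2 exons from the same start had 1 and another, at chr17:15494416-15498298, had 3. Opposite Psmd2, chr16:20654196-20654548 had 4 reads in replicate 2 and 3 in replicate 1. Opposite Psmd5, chr2:34861414-34862046 had 4 reads in replicate 1. What gave these reads was not tested.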

How the results depend on the processing

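No paired analysis was possible because the design has 1 group of 2 libraries. Of the 6 calls, Psmd3 and Psmd11 passed in all 9 settings, Psma7 and Psmb8 in 8, Psma2 in 7 and Psmc3 in 6. The number of members called was 4 to 7. The log2 ratio of Psmc3 changed sign without 1-exon models (to -0.044), and that of Psmd1 with full-length models (to 2.14), an alternative that removes most of its reads in replicate 1. Without the Genomic class the median log2 ratio of the members moved from 0.02 to 0.14. The summed 20S level moved from 4298 CPM to 4954 with full-length models and to 5018 without 1-exon models, and the 19S sum from 3780 to 4265 without 1-exon models, since fewer reads then form the total. The alternative without 1-exon models was chosen after seeing the data. Calls of isoform differences went from 1 to 0 with a minimum of 10 reads (3 at an unadjusted p under 0.05 by Fisher's exact test) and to 4 of 35 with ISM reads in the denominator, where the share over all genes also went from 1.03% to 9.25% and the median leading share went from 96.2% to 86.9%. By single libraries (without replicate 1 or 2) the 20S sum was 4059 to 4537 CPM, the 19S sum 3478 to 4083 CPM, their ratio 0.767 to 1.01 and the immune share 9.70 to 14.3%. Depth of replicate 2 limits the immune subunits and chaperones, with as few as 14 reads.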
